A study of Homo sapiens with 8 samples.

Results

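The genes described here encode secreted cytokines and chemokines, measured in THP-1 cells, an established human line grown from an acute monocytic leukaemia. They were taken by gene symbol, with CCL20 and CCL4 left out, which gave 72 of the 14884 named genes on the arrays. Of the 72, 70 encode ligands. The other 2, IFNGR1 and IFNGR2, encode the chains of the interferon gamma receptor and match the symbol rule although they are receptors. The cells received IPA-3 at 6 µg/mL or FRAX-597 at 2 µg/mL, or a matching volume of the solvent DMSO, and RNA was taken at 5 h. IPA-3 is an allosteric inhibitor of the p21-activated kinase PAK1 and FRAX-597 an ATP-competitive inhibitor of group I p21-activated kinases. There were 4 DMSO, 2 IPA-3 and 2 FRAX-597 arrays, all of 1 cell line, and no label ties them to separate cultures, so that a p-value reflects only how these arrays scatter, possibly for technical reasons. The controls of IPA-3 were DMSO 1 and 2, those of FRAX-597 were DMSO 3 and 4, and each comparison had 2 arrays a side.

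These arrays lie on different scales. The median over all 53617 probes was 5.51 to 5.55 in DMSO 1, DMSO 2 and both IPA-3 arrays (the first set), and 6.00 to 6.05 in DMSO 3, DMSO 4 and both FRAX-597 arrays (the second set). The sets were recognised from the values and carry no label. The 7 measured monocyte and myeloid markers of 12 fixed (among them CD68, LYZ, CSF1R and SPI1) were above the median of all probes on all 8 arrays, with a mean level of 9.08 to 9.13 in DMSO 1 and 2, 8.95 to 9.05 with IPA-3, 8.80 to 9.29 in DMSO 3 and 4 and 8.79 to 9.32 with FRAX-597. Markers of other cell types above it on all 8 arrays were 3 of 4 measured epithelial, 2 of 3 NK cell, 1 of 3 T cell, 1 of 2 B cell, 1 of 3 endothelial and 0 of 2 fibroblast genes. The mean of 3 NK cell markers was 5.94 to 6.11 in DMSO 1 and 2 and 7.14 to 7.88 in DMSO 3 and 4, and that of 2 B cell markers 5.58 to 5.76 and 6.28 to 7.11. These shifts include the difference in scale, and their part in the results was not tested.

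Chemokines are small secreted proteins that draw leukocytes along a gradient through receptors coupled to G proteins, and CC and CXC chemokines are told apart by the spacing of their first cysteines. Interleukins, colony-stimulating factors and TNF carry signals between blood and tissue cells through other receptor families. Monocytes make many of them within hours of a stimulus, chiefly through NF-kB, AP-1 and interferon-regulatory factors, and several of their mRNAs are short-lived.

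Promoter windows of 4 genes are shown because these genes differed widely between the arrays of the second set, a choice made after their values were seen. They are not the 4 widest, since CCL2 and CCL28 differed more than TNF did. CCL2 had no window among those available. Each window runs from 250 bases before to 50 after the annotated start site, 5′ to 3′ on the strand of the gene, from RefSeq on GRCh38.p14. The window of CXCL8 is chr4:73740319-73740618 (plus strand), that of CXCL10 chr4:76023448-76023747 (minus), that of CXCL11 chr4:76036021-76036320 (minus) and that of TNF chr6:31575315-31575614 (plus). Capitals mark matches, on either strand, to the NF-kB consensus, to the related GGANNTTCC, to an interferon-response type motif (TTTC, any 2 bases, TTTC), or to the AP-1 type TGANTCA.
CXCL8: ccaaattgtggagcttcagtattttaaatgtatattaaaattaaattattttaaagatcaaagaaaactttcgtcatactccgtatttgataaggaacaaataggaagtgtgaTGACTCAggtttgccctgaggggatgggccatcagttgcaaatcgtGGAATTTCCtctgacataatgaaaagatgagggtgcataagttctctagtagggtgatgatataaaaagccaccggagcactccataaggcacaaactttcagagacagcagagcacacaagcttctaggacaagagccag
CXCL10: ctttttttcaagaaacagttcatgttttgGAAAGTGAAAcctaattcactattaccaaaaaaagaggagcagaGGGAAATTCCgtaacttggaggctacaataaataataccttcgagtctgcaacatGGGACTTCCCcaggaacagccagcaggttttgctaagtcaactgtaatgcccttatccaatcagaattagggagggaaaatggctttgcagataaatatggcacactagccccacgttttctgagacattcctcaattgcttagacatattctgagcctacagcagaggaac
CXCL11: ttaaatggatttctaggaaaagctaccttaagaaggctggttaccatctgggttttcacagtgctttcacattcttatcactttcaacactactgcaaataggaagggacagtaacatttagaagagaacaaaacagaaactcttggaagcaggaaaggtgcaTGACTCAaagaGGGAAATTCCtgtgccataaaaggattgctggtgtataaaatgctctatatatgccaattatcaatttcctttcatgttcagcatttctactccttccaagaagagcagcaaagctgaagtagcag
TNF: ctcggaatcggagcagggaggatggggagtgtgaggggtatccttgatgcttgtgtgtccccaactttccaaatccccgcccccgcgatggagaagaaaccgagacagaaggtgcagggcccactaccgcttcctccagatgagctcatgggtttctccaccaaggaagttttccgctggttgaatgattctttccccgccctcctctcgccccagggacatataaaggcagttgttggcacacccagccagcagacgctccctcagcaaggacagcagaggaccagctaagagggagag
The window of CXCL8 held GGAATTTCC and TGACTCA. That of CXCL10 held the NF-kB consensus at 2 positions, GGGAAATTCC and GGGACTTCCC, of which GGGAAATTCC overlaps GGANNTTCC, and the interferon-response type motif at 1 on the other strand. CXCL11 held GGGAAATTCC, which again matches both NF-kB patterns, and TGACTCA. None of the 4 motifs was found in the TNF window. Among all 35116 promoter windows of this length, with several windows for some genes, the NF-kB consensus was in 11.3%, GGANNTTCC in 4.56%, the interferon-response type motif in 3.57% and TGANTCA in 7.71%. Among the 69 windows of the 48 members that matched a window by symbol, the shares were 18.8%, 15.9%, 11.6% and 20.3%. A match is a run of letters and not a measured binding site.

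None of the 72 genes passed the test for either compound. IL1B and IL6 are not among the 72, as neither was among the genes measured. With Benjamini-Hochberg adjustment over all genes in limma, 0 of 72 were called for IPA-3, where 0.0336% of all genes were, and 0 of 72 for FRAX-597, where 0.155% were. At an unadjusted p under 0.05 the counts were 0 of 72 for IPA-3 (7.21% of all genes) and 5 of 72 for FRAX-597 (7.66%). The median log2 change over the 72 genes was 0.0083 with IPA-3 and -0.0082 with FRAX-597, against -0.023 and -0.018 over all genes. With IPA-3 39 lay above 0 and 33 below, and with FRAX-597 33 above and 39 below.

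The members were spread over the range of values. Taking the median of all probes on an array as a guide, which is no measured detection limit, 23 genes were above it on all 8 arrays, 17 on some, and 32 on none. Of the 72, 31.9% were above it throughout and 44.4% on no array, against 61.2% and 24.5% of all genes. The 32 spanned 2.41 to 5.85 and included all 6 IL-10 family genes, 5 of 6 common gamma chain and T helper cytokines, and 8 of 21 CC chemokines. CC chemokines contributed 8 of the 23 genes above it throughout, including CCL3, CCL3L1 and CCL5, and IL-17 family genes 3. IL10, the anti-inflammatory cytokine, was at 4.25 and 3.90 in DMSO 1 and 2, 4.29 and 4.22 with IPA-3, 5.40 and 5.04 in DMSO 3 and 4, and 5.12 and 5.06 with FRAX-597, under the median on every array. Its change was 0.18 (SE 0.16; limma adjusted p = 0.87) with IPA-3 and -0.13 (SE 0.16; adjusted p = 0.961) with FRAX-597.

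**Figure D1:**
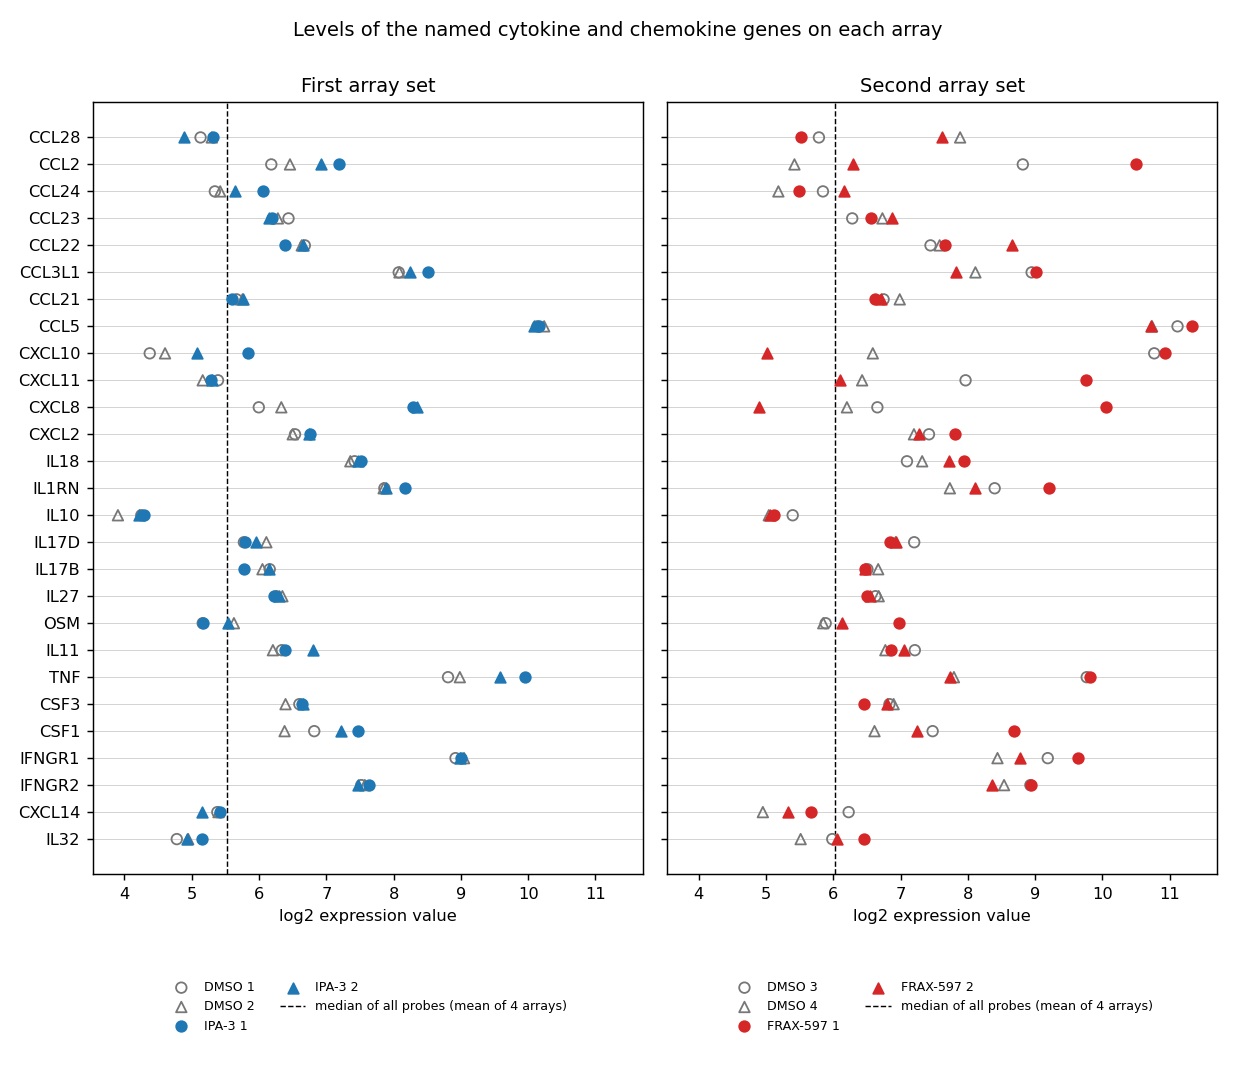
Log2 expression value (x axis) of the 27 named genes (y axis) on each array, first set on the left and second on the right; open grey symbols are DMSO, blue IPA-3 and red FRAX-597, circles the first and triangles the second array of a pair, and the dashed line is the median of all probes. In the first set the blue symbols of CXCL8 (8.29 and 8.35) lie apart from the grey ones (6.00 and 6.33), and in the second CXCL8, CXCL10, CXCL11, CCL2 and TNF differ between arrays of 1 group.

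Among the neutrophil-attracting CXC chemokines, CXCL8 (interleukin-8; probe 16967771) gave the largest IPA-3 difference of the 72 genes. It read 6.00 and 6.33 in DMSO 1 and 2 and 8.29 and 8.35 with IPA-3. In the second set it read 6.66 and 6.20 in DMSO 3 and 4, and 10.06 and 4.89 with FRAX-597. The IPA-3 arrays lay well above both of their controls and close to each other, while 1 FRAX-597 array lay far above and the other below its controls. The IPA-3 change was 2.16 on the log2 scale, or 4.46-fold, with SE 1.35 and a 95% interval from -0.999 to 5.31 (limma adjusted p = 0.773). That SE takes 1 spread per gene from both sets, and the SD of CXCL8 within groups was 0.17 in the first set and 2.59 in the second. When limma was run on the first set by itself, CXCL8 was the 1 gene of the 72 that passed, and it rose by 2.16 with SE 0.13 (limma adjusted p = 0.0124), where 0.645% of all genes were called. The fit of both sets without FRAX-597 1 or without FRAX-597 2 gave the same IPA-3 change of 2.16. It leaves out the gap between the FRAX-597 arrays, so its smaller SE is no separate support. The FRAX-597 change was 1.04 (SE 1.35; adjusted p = 0.964), and its direction depended on which FRAX-597 array was kept. Without FRAX-597 2 it was 3.63 and without FRAX-597 1 it was -1.54. In these fits the FRAX-597 group is 1 array, assumed to vary like the other groups, so only the sizes are given. CXCL2, another neutrophil attractant, read 6.53 and 6.50 in DMSO 1 and 2 and 6.75 and 6.74 with IPA-3, a change of 0.23 (SE 0.18; adjusted p = 0.841), and 0.23 (SE 0.18; adjusted p = 0.876) with FRAX-597, where the arrays overlapped. The other members of this group, CXCL3, CXCL5 and CXCL6, had changes between -0.25 and 0.25 with each compound and passed no test.

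TNF, the prototype proinflammatory cytokine (probe 17006659), read 8.81 and 8.98 in DMSO 1 and 2 and 9.95 and 9.58 with IPA-3. Its values in the second set were 9.77 and 7.79 in DMSO 3 and 4, and 9.82 and 7.73 with FRAX-597. Both IPA-3 arrays were above both controls, and in the second set each FRAX-597 array sat beside 1 of the DMSO arrays, with about 2 log2 units between the upper and the lower pair. The change was 0.87 with IPA-3 (1.82-fold, SE 0.76; limma adjusted p = 0.858) and -0.0052 with FRAX-597 (SE 0.76; adjusted p = 0.9998). In the first set alone the SE of the IPA-3 change was 0.15 (adjusted p = 0.105). TNF was the 1 member with several probes, 8 in all, of which 7 carried identical values and the other gave an IPA-3 change of 0.96.

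CSF1, the growth factor of the monocyte lineage (probe 16668420), read 6.82 and 6.38 in DMSO 1 and 2, 7.47 and 7.21 with IPA-3, 7.48 and 6.61 in DMSO 3 and 4, and 8.68 and 7.25 with FRAX-597. It was higher on both IPA-3 arrays than on their controls, and on 1 of the 2 FRAX-597 arrays. The changes were 0.74 (SE 0.46; limma adjusted p = 0.773) and 0.92 (SE 0.46; adjusted p = 0.758), so neither passed. CSF3, the granulocyte growth factor, had changes of 0.14 (SE 0.14) and -0.24 (SE 0.14), with limma adjusted p of 0.887 and 0.82. IL34, the other ligand of the CSF1 receptor, was under the median on every array.

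CCL2 (MCP-1, which recruits monocytes through CCR2; probe 16833204) read 6.18 and 6.46 in DMSO 1 and 2 and 7.18 and 6.92 with IPA-3. In the second set it read 8.82 and 5.42 in DMSO 3 and 4, and 10.50 and 6.29 with FRAX-597. The IPA-3 arrays did not overlap their controls, while the second set spread over 5 log2 units with the compound and control arrays interleaved. The IPA-3 change was 0.73 (SE 1.41; limma adjusted p = 0.963; first set alone, adjusted p = 0.134) and the FRAX-597 change 1.28 (SE 1.41; adjusted p = 0.945). CCL24, an eosinophil attractant, read 5.34 and 5.42 in DMSO 1 and 2 and 6.05 and 5.64 with IPA-3 (change 0.46, SE 0.29; adjusted p = 0.77). CCL23, a monocyte attractant of the CC family, was the 1 named gene lower on both IPA-3 arrays, at 6.44 and 6.28 in DMSO 1 and 2 and 6.19 and 6.15 with IPA-3 (change -0.19, SE 0.18; adjusted p = 0.876).

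Other CC chemokines also passed no test. CCL5 (RANTES), a T cell and monocyte attractant, read 10.14 and 10.24 in DMSO 1 and 2 and 10.17 and 10.08 with IPA-3, and 11.12 and 10.74 in DMSO 3 and 4 and 11.34 and 10.71 with FRAX-597. The changes, -0.06 (95% interval -0.56 to 0.44) and 0.10 (-0.40 to 0.60), were within the spread between arrays. CCL3L1 is a near-identical copy of CCL3, so array probes may not separate them, and CCL3L1 had changes of 0.30 (SE 0.40) and -0.11 (SE 0.40), while CCL3 had 0.29 (SE 0.26) and -0.11 (SE 0.26). CCL22, a ligand of CCR4, read 7.44 and 7.58 in DMSO 3 and 4 and 7.65 and 8.65 with FRAX-597, a change of 0.64 (SE 0.29; limma adjusted p = 0.685). It was -0.14 (SE 0.29) with IPA-3, with overlapping arrays. CCL21, a ligand of CCR7 in lymphoid tissue, was lower on both FRAX-597 arrays (change -0.20, SE 0.13; adjusted p = 0.837).

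**Figure D2:**
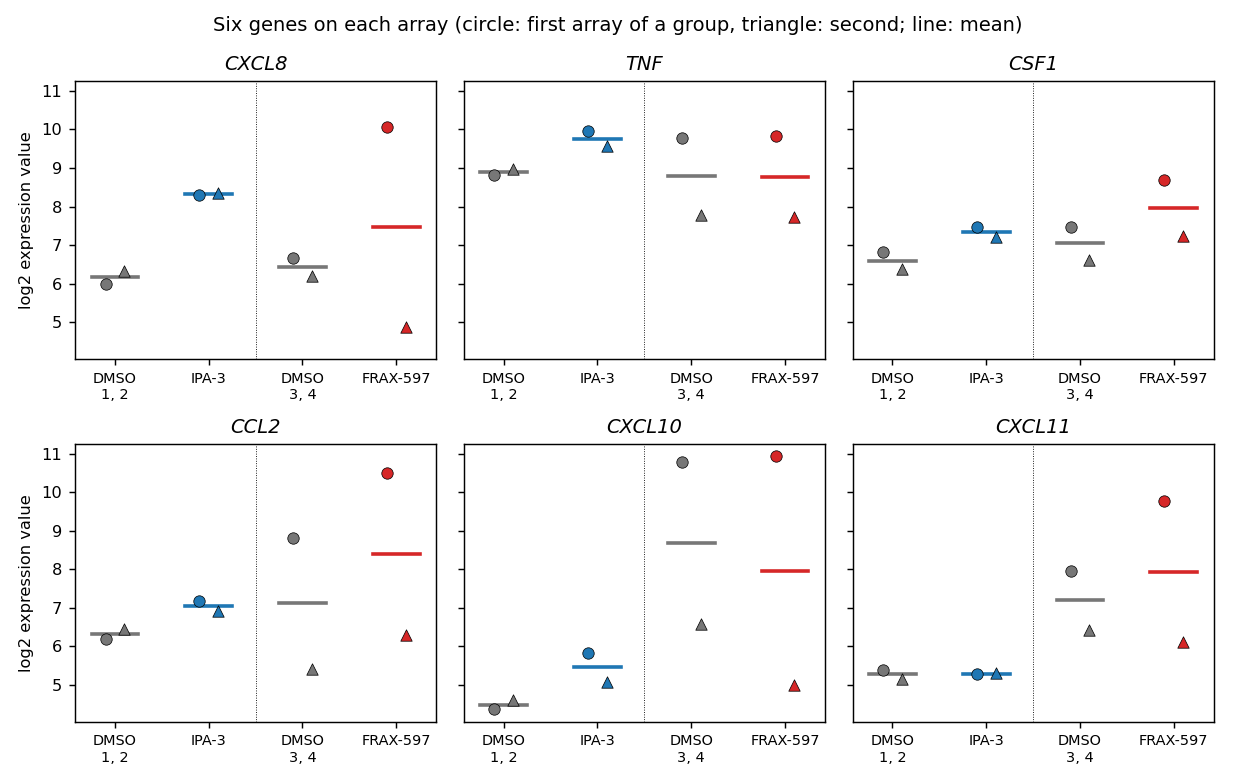
Log2 expression value (y axis) of CXCL8, TNF, CSF1, CCL2, CXCL10 and CXCL11 in DMSO 1 and 2, IPA-3, DMSO 3 and 4 and FRAX-597 (x axis); points are single arrays, lines are means of 2, and the dotted line parts the array sets. CXCL8 reads 8.29 and 8.35 with IPA-3 against 6.00 and 6.33 in its controls, and 10.06 and 4.89 with FRAX-597.

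Both IPA-3 arrays were above both DMSO arrays for 19 of 72 genes, where this held for 19.3% of all genes, and below for 8 of 72, where it held for 28.3%. In the first set fitted alone, 10 of 72 genes were higher at an unadjusted p under 0.05 in limma, against 6.5% of all genes. In the joint fit 0 of 72 were higher and 0 of 72 lower, against 3.1% and 4.11% of all genes. The 10, named after their values were seen, were CXCL8, CCL2, TNF, IL33, CSF1, CXCL10, CCL24, CXCL2, CCL3 and CCL3L1. The count takes CCL3 and CCL3L1 as separate genes, although array probes may not separate these near-identical copies. Of the 10, CXCL8 alone passed with adjustment, and IL33, an alarmin of the IL-1 family, was under the median of all probes on every array (change 0.59, SE 0.37 in the joint fit). CXCL10 was above that median on 4 of the 8 arrays and CCL24 on 3, and both were under it in DMSO 1 and 2.

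The CXCR3 ligands CXCL9, CXCL10 and CXCL11 attract activated T cells and are induced by interferon. CXCL10 (probe 16977052) read 4.38 and 4.60 in DMSO 1 and 2 and 5.84 and 5.07 with IPA-3. It read 10.77 and 6.59 in DMSO 3 and 4, and 10.93 and 5.01 with FRAX-597. DMSO 3 and FRAX-597 1 were high and close to each other, and every other array was lower by more than 4 log2 units. The IPA-3 change was 0.97 (SE 1.89; limma adjusted p = 0.963) and the FRAX-597 change -0.71 (SE 1.89; adjusted p = 0.998). CXCL11 (probe 16977058) read 5.39 and 5.16 in DMSO 1 and 2, 5.28 and 5.30 with IPA-3, 7.97 and 6.43 in DMSO 3 and 4, and 9.76 and 6.10 with FRAX-597. Here too DMSO 3 and FRAX-597 1 were the highest arrays, and the changes were 0.02 (SE 1.03) and 0.73 (SE 1.03; adjusted p = 0.97). CXCL9 was under the median on every array, at 4.55 and 4.28 in DMSO 3 and 4 and 4.82 and 4.65 with FRAX-597.

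The arrays of 1 group differed from each other in these genes in the second set. DMSO 3 and DMSO 4 differed by more than 1 log2 unit in 7 of 72 genes, against 1.69% of all genes, and FRAX-597 1 and FRAX-597 2 in 10 of 72, against 2.86%. In the first set the counts were 0 of 72 for DMSO 1 and 2 (0.047% of all genes) and 0 of 72 for the IPA-3 arrays (0.101%). CXCL10 was 18.2-fold higher in DMSO 3 than in DMSO 4 and 60.5-fold higher in FRAX-597 1 than in FRAX-597 2. For CCL2 the same ratios were 10.5-fold and 18.5-fold, and for CXCL8 1.37-fold and 35.9-fold. CCL28, a mucosal chemokine, ran the other way, at 5.79 and 7.89 in DMSO 3 and 4 and 5.52 and 7.61 with FRAX-597. CXCL14 read 6.23 and 4.95 in DMSO 3 and 4 and 5.66 and 5.32 with FRAX-597. Across the 72 genes, the gap between the control arrays and the gap between the FRAX-597 arrays had a Pearson r of 0.79 (0.65 across all genes). The matching r in the first set was -0.09 (-0.06 across all genes). These are correlations across genes of the same arrays, which are not independent, and are given as a description. The myeloid markers LYZ (10.79 and 9.71) and CSF1R (10.13 and 9.09) were also higher in DMSO 3 than in DMSO 4, as was the B cell marker PAX5 (8.36 and 6.74). The NK cell marker NCAM1 ran the other way, as CCL28 did, at 6.70 and 8.74 in DMSO 3 and 4 and 7.12 and 8.89 with FRAX-597. Other markers of the same lists differed less between DMSO 3 and 4. Among them were the myeloid SPI1 (9.33 and 9.29), the B cell CD22 (5.87 and 5.82) and the NK cell GNLY (5.77 and 5.73) and NKG7 (8.95 and 9.16). The part of these markers in the differences was not tested. In a whole culture, fewer cells of a kind and less RNA per cell cannot be told apart.

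**Figure D3:**
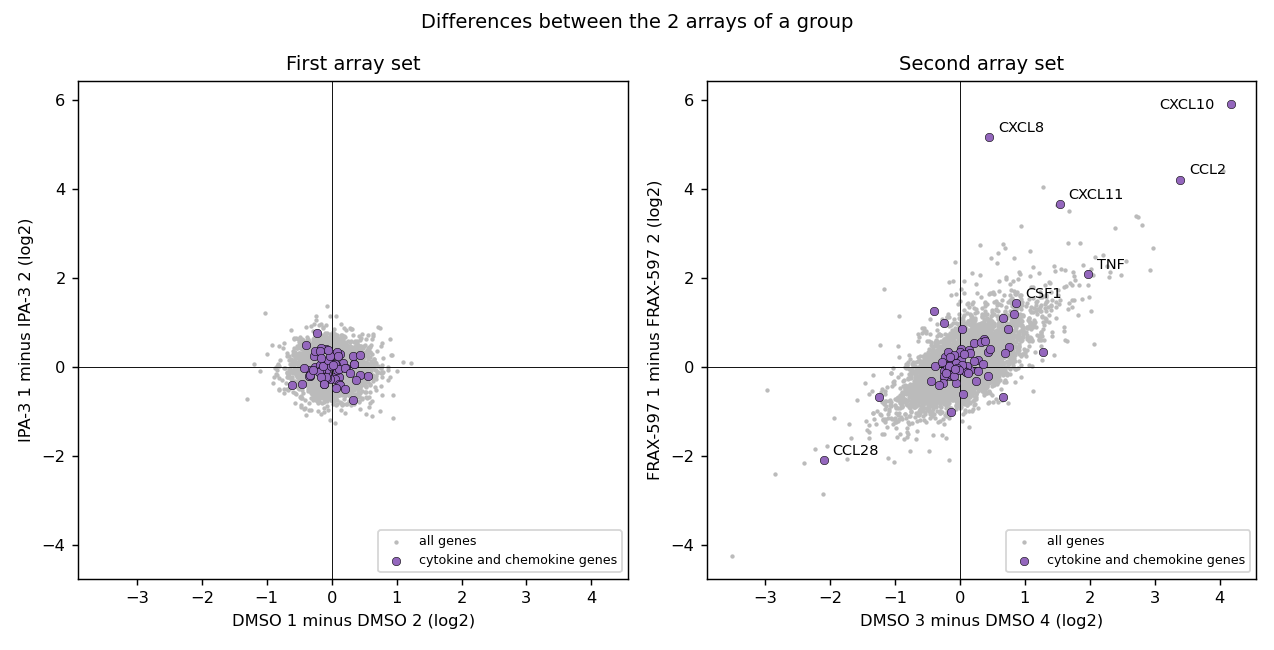
Difference between the 2 arrays of a compound (y axis, log2) against the difference between their 2 DMSO arrays (x axis, log2), first set on the left and second on the right; grey points are all genes and purple points the 72 cytokine and chemokine genes. In the second set CXCL10 (4.18 and 5.92) and CCL2 (3.39 and 4.21) lie far to the upper right, CXCL8 (0.45 and 5.17) is high along the y axis only, and CCL28 (-2.10 and -2.09) lies at the lower left.

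With FRAX-597 the clearest member was IL18 (probe 16744415), an IL-1 family cytokine stored as a precursor and cleaved by caspase-1. It read 7.10 and 7.32 in DMSO 3 and 4 and 7.94 and 7.71 with FRAX-597, so that both compound arrays were above both controls. The change was 0.62 (1.54-fold, SE 0.13, 95% interval 0.32 to 0.92; limma unadjusted p = 0.0016, adjusted p = 0.218), which did not pass. With IPA-3 it read 7.51 and 7.47 against 7.42 and 7.36, a change of 0.10 (SE 0.13; adjusted p = 0.926). IL1RN, the antagonist of the IL-1 receptor, read 8.40 and 7.73 in DMSO 3 and 4 and 9.20 and 8.11 with FRAX-597, with overlapping arrays and a change of 0.59 (SE 0.35; adjusted p = 0.82). With IPA-3 its change was 0.17 (SE 0.35; adjusted p = 0.965). All 4 measured IL-1 family members lay above 0 with FRAX-597, and 3 of 4 with IPA-3, with 0 called. Of all 14884 genes, 6738 and 6612 lay above 0. IL33 and IL37, which are among the 4, were under the median of all probes on every array.

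OSM, oncostatin M, a gp130 cytokine of monocytes, read 5.89 and 5.85 in DMSO 3 and 4 and 6.98 and 6.13 with FRAX-597 (change 0.68, SE 0.29; limma adjusted p = 0.639), and its change with IPA-3 was -0.04 (SE 0.29). IL32, a proinflammatory cytokine without a rodent counterpart, read 5.99 and 5.52 in DMSO 3 and 4 and 6.46 and 6.05 with FRAX-597 (change 0.51, SE 0.20; adjusted p = 0.611) and had a change of 0.18 (SE 0.20) with IPA-3. IL18, OSM, IL32, CXCL9 (0.32) and IL20 (-0.29) were the 5 members at an unadjusted p under 0.05, the last pair named after their values were seen and both under the median on every array. Of the 5, 4 were higher (4.04% of all genes) and 1 lower (3.61%). Both FRAX-597 arrays were above both controls for 6 of 72 genes (13% of all genes) and below for 12 of 72 (17.8%). In the second set fitted alone limma called 0 of 72 (0% of all genes), with 1 of 72, IL18, at an unadjusted p under 0.05 (4.07% of all genes).

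Of the named genes lower on both FRAX-597 arrays, IL17D had a change of -0.18 (SE 0.16), IL27, a regulator of T helper cells made by myeloid cells, of -0.13 (SE 0.10), and IL17B of -0.12 (SE 0.14), with limma adjusted p from 0.889 to 0.96. With IPA-3 their changes were -0.07, -0.04 and -0.15. IL11, a gp130 cytokine, read 6.34 and 6.21 in DMSO 1 and 2 and 6.38 and 6.79 with IPA-3 (change 0.32, SE 0.19; adjusted p = 0.765) and had a change of -0.04 with FRAX-597. The receptor chains that the rule took had IPA-3 changes of 0.01, both for IFNGR1 (95% interval -0.72 to 0.74) and for IFNGR2 (-0.48 to 0.50). With FRAX-597 IFNGR1 had a change of 0.39 (SE 0.31) and IFNGR2 one of -0.09 (SE 0.21), with overlapping arrays.

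**Figure D4:**
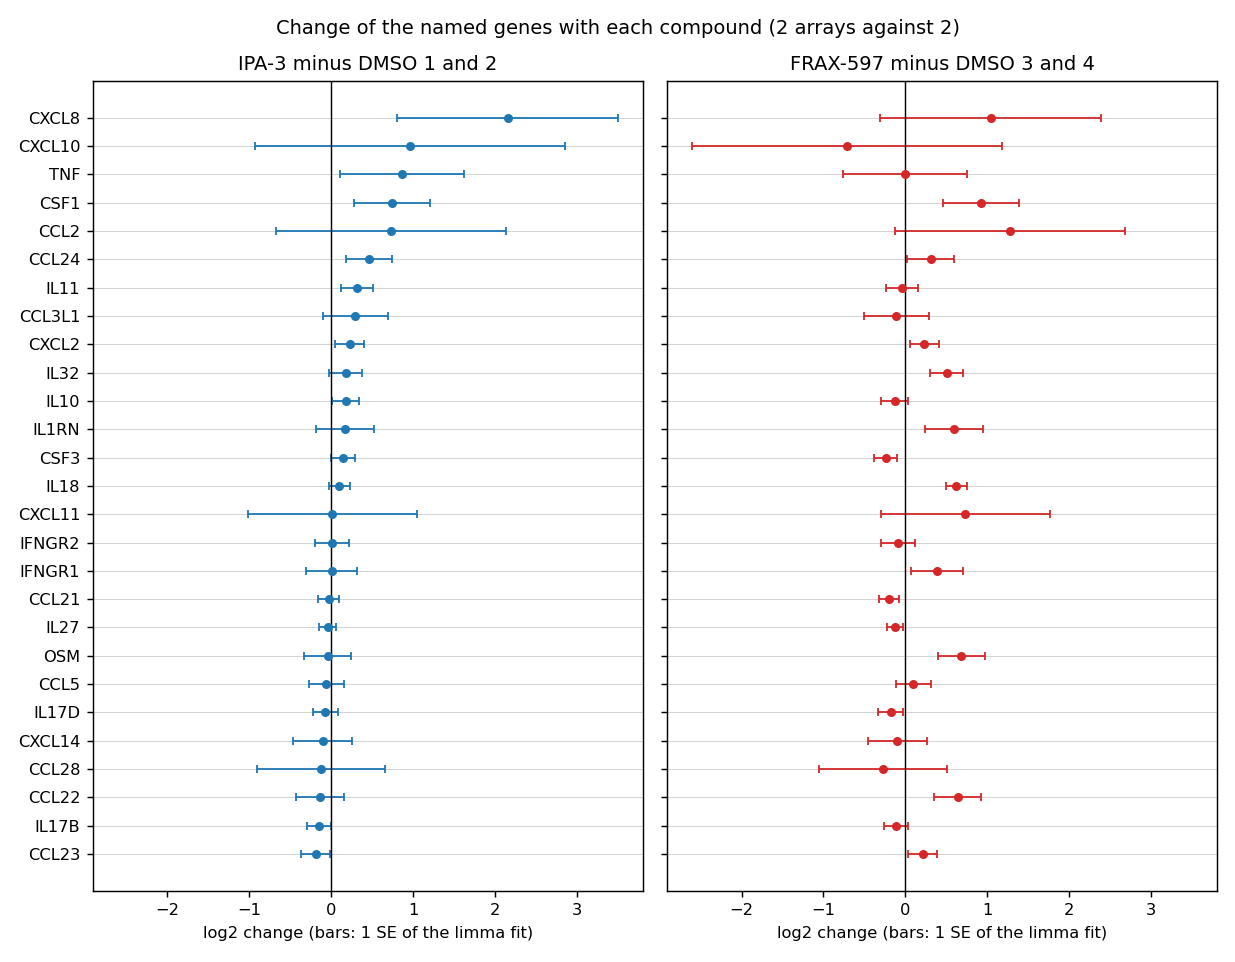
Log2 change (x axis) of the 27 named genes (y axis, ordered by the IPA-3 change) with IPA-3 on the left and FRAX-597 on the right; points are the difference between means of 2 arrays and bars 1 SE of the limma fit. CXCL8 has the largest IPA-3 change, 2.16 with SE 1.35, and IL18 a short bar clear of 0 with FRAX-597, 0.62 with SE 0.13.

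The compounds were compared by the difference of their changes, FRAX-597 minus IPA-3, in which no array is shared but the doses differ. Limma called 0 of 72 genes, with 0.0134% of all genes called, and 3 of 72 had an unadjusted p under 0.05 (6.11% of all genes). These were IL18 (difference 0.52, adjusted p = 0.769), CXCL9 (0.48, adjusted p = 0.788) and CCL1 (-0.51, adjusted p = 0.807), the last pair named after their values were seen. For CXCL8 the difference was -1.11 with a 95% interval from -5.58 to 3.35, and for TNF -0.87 (-3.38 to 1.63), which leaves wide room on either side of 0. Its sign for CXCL8 turned with the array left out, at -3.70 without FRAX-597 1 and 1.47 without FRAX-597 2. Each of these fits again had 1 FRAX-597 array, assumed to vary like the other groups.

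Genes of the pathways that control cytokine mRNA were read from lists of their own. Of 25 genes of NF-kB factors and regulators 14 were measured, and 12 lay above 0 with IPA-3 (median 0.13) and 11 with FRAX-597 (median 0.61), against medians of -0.023 and -0.018 over all genes. None was called, with 1 higher at an unadjusted p under 0.05 for IPA-3 (TNIP3, an inhibitor of NF-kB signalling) and 3 higher for FRAX-597, where 3.1% and 4.04% of all genes were. TNIP3, named after its values were seen, was under the median of all probes on every array. In the first set alone 2 of the 14 passed for IPA-3, where 0.645% of all genes were called. They were the NF-kB subunit genes NFKB1 (0.71, SE 0.09, limma adjusted p = 0.0442) and RELB (0.73, SE 0.09, limma adjusted p = 0.0406). Both were named after their values were seen. In the joint fit neither passed (limma adjusted p = 0.861 for NFKB1 and 0.773 for RELB). BCL3, an atypical IkB protein, read 8.14 and 7.84 in DMSO 3 and 4 and 9.62 and 9.07 with FRAX-597 (change 1.36, SE 0.19; limma adjusted p = 0.0671). It passed with DMSO 3 and FRAX-597 1, and DMSO 4 and FRAX-597 2, paired as blocks (limma adjusted p = 0.00236). No label gives that pairing, which was read from these same values, and 1.36% of all genes were called with it. Without blocks, the FRAX-597 change of REL, an NF-kB subunit, was 0.88 (SE 0.27; adjusted p = 0.443). That of MAP3K8, a kinase upstream of ERK in TNF production, was 0.63 (SE 0.20; adjusted p = 0.464). In this list too FRAX-597 1 exceeded FRAX-597 2, by a median of 0.85, and DMSO 3 exceeded DMSO 4 by 0.15.

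Of 18 genes of Toll-like receptor signalling 17 were measured and 0 called. With IPA-3 8 lay above 0 and 9 below, and 2 were lower at an unadjusted p under 0.05, TLR1 (-0.37, SE 0.13) and MYD88 (-0.44, SE 0.17), the adaptor of most Toll-like receptors, where 4.11% of all genes were. With FRAX-597 11 lay above 0, and the kinase gene IRAK2 differed by a mean of 1.69 (SE 0.72; limma adjusted p = 0.651), at 6.90 and 6.59 in DMSO 3 and 4 and 9.81 and 7.06 with the compound. LY96, which encodes the TLR4 co-receptor MD-2, passed for FRAX-597 with the paired blocks (change 1.09; limma adjusted p = 0.0378, against 0.804 without them). With these blocks 1.36% of all genes were called, and the pairing was read from these same values. LY96 was named after its values were seen, and was above the median of all probes on 1 of the 8 arrays. Of 11 inflammasome genes 4 were measured and 0 called. PYCARD, the adaptor ASC through which caspase-1 is recruited to mature IL18, read 10.58 and 10.54 in DMSO 1 and 2 and 9.97 and 9.94 with IPA-3 (change -0.61, SE 0.11; adjusted p = 0.257) and had a change of -0.20 with FRAX-597. Of 13 genes of cytokine mRNA decay 6 were measured and 0 called. ZC3H12C, a relative of the cytokine mRNA nuclease regnase-1, had changes of 0.61 (SE 0.50) with IPA-3 and 1.09 (SE 0.50) with FRAX-597, and ZC3H12A, which encodes regnase-1, of 0.20 (SE 0.20) and 0.46 (SE 0.20).

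The controls of the sets also differed. DMSO 3 and 4 were above DMSO 1 and 2 at an adjusted p under 0.05 in 37 of 72 genes, where 54.9% of all genes were, and below in 1 of 72 (4.98%), which was CCL17. The median difference was 0.53 for the 72 genes and 0.48 for all genes, so the members followed the general shift. CXCL10 had the largest difference, 4.19 (limma adjusted p = 0.0900), which did not pass. IL7, a lymphocyte growth factor, had one of 2.45 (SE 0.40; adjusted p = 0.00213), at 3.32 and 3.11 in DMSO 1 and 2 and 5.05 and 6.29 in DMSO 3 and 4. Scale, culture and processing cannot be told apart here.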

How the data were processed

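Total RNA of THP-1 cells was hybridised to 8 Affymetrix arrays of 1 colour. The authors deposited log2 expression values for 53617 probes. Affymetrix Expression Console and Transcriptome Analysis Console are named per the submitters' processing notes. The normalization, and whether the arrays were normalized together, are not given in the sources used here. Platform annotation gave 16098 probes a gene, and the probe with the highest mean was kept for each of 14884 genes. All values were fitted in limma 3.58.1 (R 4.3.3; lmFit, eBayes) with 4 groups: DMSO 1 and 2, IPA-3, DMSO 3 and 4, and FRAX-597. Benjamini-Hochberg adjustment was over all genes, with a threshold of 0.05. Residual degrees of freedom were 4 and prior ones 3.44. The procedure was tested on simulated data. The background guide was to be the 95th percentile of olfactory receptor genes, but with 1 such gene measured, where at least 30 were required, the median of all probes was used.

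The members and lists were chosen with earlier results of these data known. The named genes were members called in any comparison, of which there were none; per compound, the 6 largest rises and falls among members above background whose arrays did not overlap; the 10 with the highest DMSO mean; TNF, IL1B, CXCL8, IL6 and IL10 where measured; and the 6 with the largest gap between DMSO 3 and DMSO 4. Up to 3 genes per pathway list, those with the smallest unadjusted p, were also named. TNIP3, NFKB1, RELB and LY96 were added to these after their values were seen. Alternatives were other controls, separate fits, a block, other normalizations, probe rules and priors, a filter, and leaving out each array. The number of arrays limits the precision.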

Additional observations from a re-analysis of the deposited data

Results flagged for a closer look

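CCL3L1 stood apart in DMSO 3, at 8.95 against 8.08, 8.09 and 8.11 in the other DMSO arrays. The gap was 0.958 of the whole range of the 4 arrays, above the critical value of Dixon's test. Chance gives a gap above that critical value in about 1 in 20 groups, 27 genes were examined, and the DMSO arrays lie on 2 scales.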

How the results depend on the processing

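The count of 0 called members held for IPA-3 with pooled controls, quantile normalization, centring on each array's median, the mean of all probes, every probe as its own feature, a filter on genes above the median of all probes in 2 or more arrays (added after the data were examined), and a trended and robust prior. It was 1 in the first set alone (CXCL8), where 0.645% of all genes were called. Leaving out a FRAX-597 array also changed the calls, of CXCL8 in each comparison and of IL33 for FRAX-597. That leaves 1 array in the group, without the gap between the FRAX-597 arrays in the spread, so those calls are not counted here. The labels pair no arrays. With DMSO 3 and FRAX-597 1, and DMSO 4 and FRAX-597 2, as blocks, a pairing read from these same values, the FRAX-597 count was 1 (CCL2, change 1.28, SE 0.20; limma adjusted p = 0.0344; 1.36% of all genes called), and IPA-3 stayed at 0. The median change moved to -0.27 for IPA-3 and 0.34 for FRAX-597 with pooled controls, which by construction mix the scales of the sets, and to 0.079 for IPA-3 with the filter, which keeps 37 of the 72 genes. Leaving out an array gave medians from 0.0069 to 0.044 for IPA-3 and from -0.042 to 0.050 for FRAX-597. Pooled controls reversed IL10 with IPA-3 (-0.39) and IL17D with FRAX-597 (0.38). Of 860 values of named genes under alternatives, 853 kept direction and side of the threshold, where a change within 1 SE of 0 was given no direction. The filter by olfactory receptor genes was not run.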

Other observations

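Genes next to CXCL8, CCL2 and CXCL10 were read as well. CXCL6, the next protein-coding gene to CXCL8 in the RefSeq gene table, read 4.18 and 4.28 in DMSO 1 and 2, 4.05 and 4.13 with IPA-3, 4.50 and 4.45 in DMSO 3 and 4, and 4.38 and 4.44 with FRAX-597. CCL7 and CCL11, which follow CCL2 in that order, read 4.02 and 3.97 (CCL7) and 4.83 and 5.04 (CCL11) in DMSO 3 and 4, where CCL2 read 8.82 and 5.42. With FRAX-597 CCL7 read 3.44 and 4.05 and CCL11 4.94 and 5.06, where CCL2 read 10.50 and 6.29. CXCL6, CCL7 and CCL11 were under the median of all probes on every array. CXCL10 and CXCL11 are neighbours as well, and both read highest in DMSO 3 and FRAX-597 1.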
